A study of Homo sapiens with 18 samples.

Results

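The STAT transcription factors and JAK kinases were described in sorted human lymphoma cells from mice given tazemetostat or vehicle before CAR T cells. They were chosen as family members by symbol: STAT2, STAT3, STAT4, STAT5A, STAT5B, STAT6, JAK1, JAK2 and TYK2, which are 9 of the 58735 genes in the count table. All 9 were found and all 9 passed the filter on low counts.

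The tumours were OCI-Ly18, an established human line of diffuse large B-cell lymphoma that carried green fluorescent protein (GFP), grown under the skin of NSG mice, which are immunodeficient. The 3 tazemetostat mice (M_767, M_768 and M_774) received this EZH2 inhibitor, also called EPZ6438, by oral gavage at 150 mg/kg each day. The 3 vehicle mice (M_766, M_769 and M_770) received vehicle on the same schedule, which ran for 14 days from day 3 after implantation. Every mouse then received CART19 cells, T cells that carry a chimeric antigen receptor, and GFP-positive tumour cells were sorted 11 days after that infusion. Both groups therefore share the CART19 exposure, and mice given UTD cells were not analysed here. Whether tazemetostat continued after the infusion is not stated. A single cell line in a host without its own mature lymphocytes limits what the groups can stand for. The comparison asks how transcripts differed, after earlier tazemetostat or vehicle, in tumour cells that later met CART19 cells. Since every mouse received CART19 cells, an effect of tazemetostat alone cannot be told apart from one that came through them.

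JAK kinases sit on the inner tails of cytokine receptors and are switched on when a ligand brings receptor chains together. They phosphorylate the receptor and the STAT proteins that dock there, and the STATs then pair, enter the nucleus and bind DNA. Type I interferon uses JAK1 and TYK2 to activate STAT2, cytokines of the interleukin-6 and interleukin-10 families activate STAT3, interleukin-12 activates STAT4, interleukin-2 and its relatives activate the STAT5 pair, and interleukin-4 activates STAT6. In germinal-centre B cells and the lymphomas that arise from them, interleukin-4 and interleukin-21 signalling through this route is well described. RNA levels do not show phosphorylation, which is how these proteins are switched on.

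The 18 libraries, 3 from each mouse, held 16124494 to 26336269 counts, and the 3 libraries of a mouse were summed. CPM is a read count scaled, with TMM factors, so that libraries of unequal depth can be compared. TPM divides by the deposited gene length, so it is used where genes are set against each other. All 10 B-cell markers were detected. Of 19 T-cell markers, CD3D and CD3G had 0 counts in every mouse, and CD3E had 1, 7 and 3 counts in tazemetostat animals M_767, M_768 and M_774, against 3, 4 and 9 counts in vehicle mice M_766, M_769 and M_770. The summed T-cell list ranged over 367 to 392 CPM in tazemetostat mice and 377 to 437 CPM in vehicle mice (exact permutation p = 0.2, two-sided), and most of it came from IL7R, TRBC2 and CD247. Library M_768_C of the tazemetostat group stood apart, with a TMM factor of 0.901 where the other libraries had 0.978 to 1.03, and the members' values without it are given below.

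No member passed the test between the groups. With edgeR's quasi-likelihood test and Benjamini-Hochberg adjustment, 0 of 9 members had an adjusted p under 0.05, where 0.0345% of all tested genes were called, 0.0197% higher and 0.0148% lower. STAT2, STAT3 and STAT4 had higher CPM in all 3 tazemetostat mice than in any vehicle mouse, and STAT5B had lower CPM in all 3. Higher values without overlap were found for 6.58% of all tested genes and lower ones for 6.0%. At an unadjusted p under 0.05 there were 4 of 9 members on the higher side (STAT2, STAT3, STAT4 and JAK2) and 0 on the lower side, against 3.34% and 3.21% of all tested genes. The median log2 fold change was 0.14 over the 9 members and -0.01 over all 20301 tested genes. Without library M_768_C no member passed either, and the log2 fold changes were 0.60 for STAT2, 0.58 for STAT3, 0.72 for STAT4, 0.16 for STAT5A, -0.11 for STAT5B, 0.14 for STAT6, -0.02 for JAK1, 0.37 for JAK2 and -0.07 for TYK2.

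**Figure D1:**
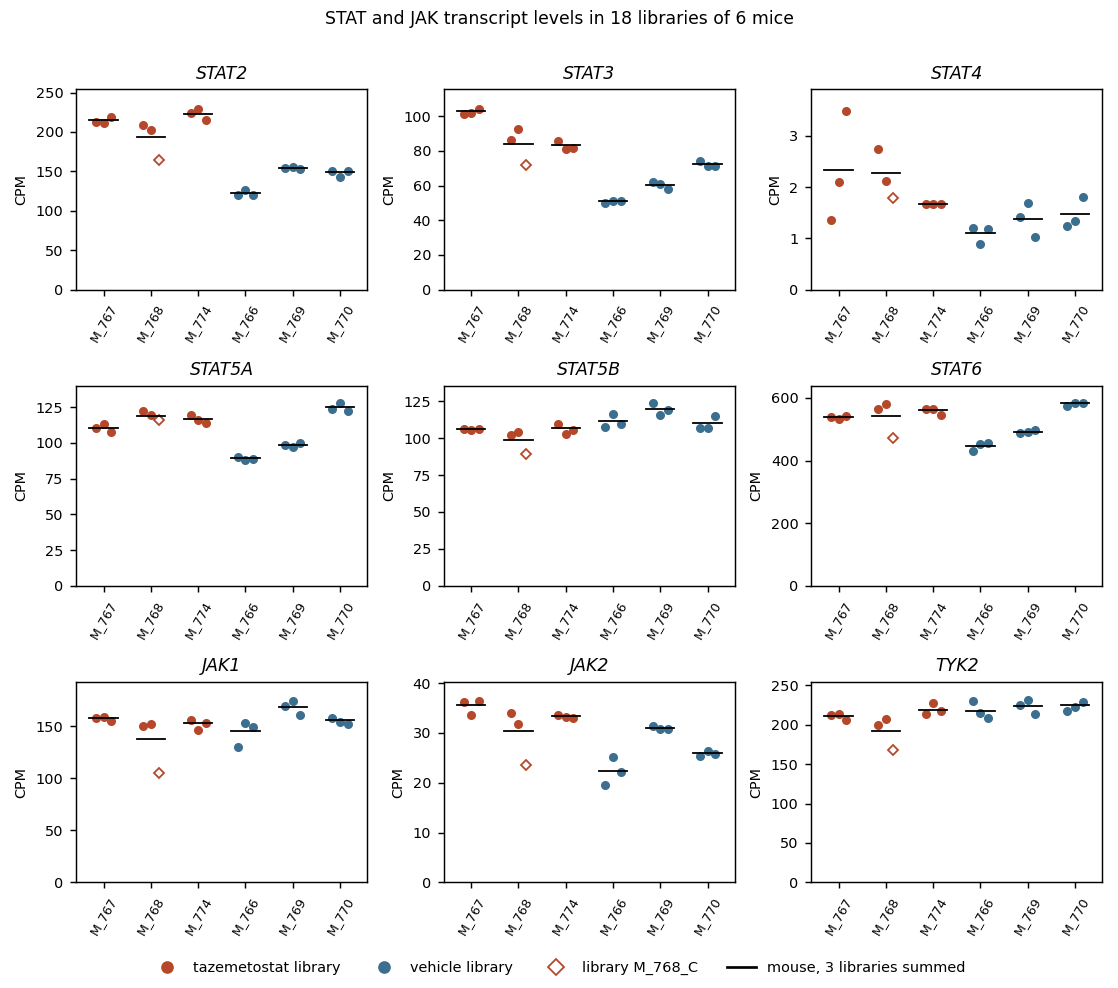
CPM of each gene in the 18 libraries (points) and in the 6 mice with their 3 libraries summed (black lines), tazemetostat mice on the left in red and vehicle mice on the right in blue. All 9 tazemetostat libraries lie above all 9 vehicle libraries for STAT2, and the open diamond, library M_768_C, is the lowest tazemetostat library for 7 of the 9 genes.

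Promoter windows are shown because the best-known STAT binding letters could be looked for in them. RefSeq gives 17 windows of 300 bases for the 9 genes on GRCh38.p14, from 250 bases before a transcript start to 50 after it. On both strands, 5 patterns were searched: TTCNNNGAA, the gamma-activated site bound by most STAT pairs; TTC and GAA with 4 free bases between them, the wider spacing that STAT6 prefers; GAAA and GAAA with 2 free bases between them, the core of the interferon-stimulated response element; GGGCGG, a GC box; and CCAAT. The 2 TTC patterns could overlap. TTCNNNGAA was in 0 of the 17 windows and in 7.66% of all 35116 RefSeq windows. The interferon response core was in 0 of the 17 and in 3.57% of all. The wider TTC pattern was in 1 of the 17, a STAT5A window, and in 6.44% of all. GGGCGG was in 7 windows of 7 genes and in 44.95% of all, and CCAAT was in 4 windows of 4 genes and in 34.61% of all. The windows below are those of STAT2 and STAT3, the genes with the smallest p here, the STAT5A window with the wider TTC pattern, and TYK2, whose window holds 6 CCAAT letters. Each runs 5′ to 3′ on the strand of its gene, and capitals mark a match to any of the 5 patterns on either strand. The STAT2 window is at chr12:56360058-56360357, minus strand, STAT3 at chr17:42388393-42388692, minus strand, STAT5A at chr17:42287189-42287488, plus strand, and TYK2 at chr19:10380523-10380822, minus strand.
STAT2: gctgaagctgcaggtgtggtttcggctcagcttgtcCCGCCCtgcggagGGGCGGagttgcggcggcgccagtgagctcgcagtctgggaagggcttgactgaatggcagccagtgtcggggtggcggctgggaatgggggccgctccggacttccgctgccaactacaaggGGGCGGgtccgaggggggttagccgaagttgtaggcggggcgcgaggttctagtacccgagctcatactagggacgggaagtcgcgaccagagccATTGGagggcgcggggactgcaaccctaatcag
STAT3: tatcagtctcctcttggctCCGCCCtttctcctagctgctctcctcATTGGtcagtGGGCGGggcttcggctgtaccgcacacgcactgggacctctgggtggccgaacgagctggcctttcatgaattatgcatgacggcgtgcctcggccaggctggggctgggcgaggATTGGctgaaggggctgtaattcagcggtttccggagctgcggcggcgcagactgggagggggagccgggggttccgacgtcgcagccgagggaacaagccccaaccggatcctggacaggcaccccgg
STAT5A: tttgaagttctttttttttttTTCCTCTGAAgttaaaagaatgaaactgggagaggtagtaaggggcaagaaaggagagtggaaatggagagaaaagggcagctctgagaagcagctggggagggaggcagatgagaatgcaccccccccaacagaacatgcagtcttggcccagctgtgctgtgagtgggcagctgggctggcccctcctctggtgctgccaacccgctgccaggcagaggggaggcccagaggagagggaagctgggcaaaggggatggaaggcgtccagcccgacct
TYK2: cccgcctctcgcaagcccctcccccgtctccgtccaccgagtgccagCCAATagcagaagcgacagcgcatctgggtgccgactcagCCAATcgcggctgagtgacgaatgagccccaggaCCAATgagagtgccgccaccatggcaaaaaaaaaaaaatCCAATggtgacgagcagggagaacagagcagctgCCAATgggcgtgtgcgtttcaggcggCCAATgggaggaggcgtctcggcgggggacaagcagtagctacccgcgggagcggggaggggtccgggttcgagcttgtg
STAT2 has 3 GC boxes, at -214, -201 and -78 from the start, and 1 CCAAT match at 17 after it. STAT3 has 2 GC boxes and 2 CCAAT matches. The TTC pattern in the STAT5A window begins at -229. The 6 CCAAT matches of TYK2 lie between -203 and -30. A match is only a match of letters, and the lack of one says only that these letters are not in these windows.

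STAT2, the partner of IRF9 in the complex that carries type I interferon signals to DNA, had the smallest p of the 9. Its level was 215, 194 and 223 CPM in tazemetostat mice M_767, M_768 and M_774, and 122, 154 and 149 CPM in vehicle mice M_766, M_769 and M_770. The lowest tazemetostat mouse was above the highest vehicle mouse. The means were 210.6 ± 15.2 CPM in tazemetostat mice and 141.7 ± 17.2 CPM in vehicle mice (SD, n = 3 each), a log2 fold change of 0.57 (SE 0.109, 95% interval 0.33 to 0.81, edgeR adjusted p = 0.219). It ranked 27 of 20301 genes by p. By library the lowest, median and highest values were 164.5, 212.3 and 229.7 CPM in the 9 tazemetostat libraries and 119.4, 150.1 and 155.2 CPM in the 9 vehicle libraries, so that 9 of 9 tazemetostat libraries were above every vehicle library. Libraries of a mouse share the animal and are not independent. On hg38, with the gene models of GENCODE 29 as for the other genes, STAT2 lies on chromosome 12 at 56341597 to 56360155 (ENSG00000170581, minus strand).

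STAT3, which serves interleukin-6, interleukin-10 and interleukin-21, had 103, 83.9 and 83.5 CPM in tazemetostat mice M_767, M_768 and M_774, and 50.8, 60.4 and 72.6 CPM in vehicle mice M_766, M_769 and M_770. The groups did not overlap, and M_767 stood above the other tazemetostat mice while M_770 was the highest vehicle mouse. The means were 90.0 ± 11.0 CPM in tazemetostat mice and 61.3 ± 10.9 CPM in vehicle mice (SD, n = 3 each), a log2 fold change of 0.56 (SE 0.136, 95% interval 0.25 to 0.86, edgeR adjusted p = 0.381). It ranked 106 by p. By library, 8 of 9 tazemetostat libraries were above every vehicle library. The exception was M_768_C at 72.06 CPM, where the highest vehicle library had 74.1 CPM. STAT3 lies on chromosome 17 at 42313324 to 42388568 (ENSG00000168610, minus strand).

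The calls for these 2 genes depended on the method. STAT2 and STAT3 passed with DESeq2 (adjusted p = 0.0018 and 0.0308), which called 0.458% of its tested genes higher. Both also passed in edgeR without the low-count filter (adjusted p = 5.5e-05 and 0.00015), which called 0.443% higher. With limma-voom on all 18 libraries, the mouse being a random effect, both passed again (adjusted p = 0.0007 and 0.0036) with 0.906% called higher, and with the library letter as a block as well 0.79% were called higher, these 2 among them. Both fits of single libraries took a single within-mouse correlation for all genes, 0.423 in the fit without the library letter. Between libraries of a mouse the log2 SD was 0.083 for STAT2 and 0.084 for STAT3. Between mice of a group it was 0.149 and 0.218. For genes whose libraries are more alike within a mouse than that correlation, such fits give p-values that are too small. No other member passed in any of those 4 fits. Their log2 fold changes stayed between 0.48 and 0.64 for STAT2 and between 0.45 and 0.70 for STAT3 over the 16 alternatives.

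**Figure D2:**
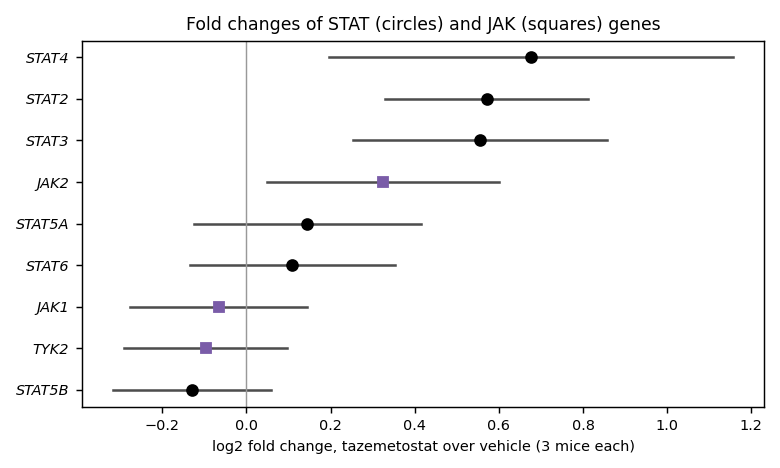
Log2 fold change of tazemetostat over vehicle for each STAT gene (circles) and JAK gene (squares), with the 95% interval of the edgeR fit over 3 mice a group. The intervals of STAT4, STAT2, STAT3 and JAK2 lie above 0 before adjustment and those of the other 5 genes cross it.

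STAT4, which carries interleukin-12 signals and is best known in T and NK cells, had the lowest level of the 9. It had 166, 149 and 99 counts in tazemetostat mice M_767, M_768 and M_774, and 71, 81 and 81 counts in vehicle mice M_766, M_769 and M_770. That is 2.34, 2.27 and 1.68 CPM in tazemetostat mice and 1.09, 1.39 and 1.47 CPM in vehicle mice, without overlap. The means were 2.10 ± 0.364 CPM in tazemetostat mice and 1.32 ± 0.196 CPM in vehicle mice (SD, n = 3 each), a log2 fold change of 0.68 (SE 0.217, 95% interval 0.20 to 1.16, edgeR adjusted p = 0.557). The libraries of a mouse scattered more for STAT4 than the mice of a group did, with an SD on the log2 scale of 0.373 between libraries of a mouse and 0.246 between mice of a group. Single libraries ran over 1.366 to 3.488 CPM in tazemetostat mice and 0.8922 to 1.815 CPM in vehicle mice, and 4 of 9 tazemetostat libraries were above every vehicle library. Of the 19 T-cell markers, 2 (CD3D and CD3G) had 0 counts and 10, these included, had under 60 counts over the 6 mice. Others were well detected, with 76712 counts of IL7R, 41550 of TRBC2, 16110 of CD247, 4545 of TRAC, 4091 of LCK and 1550 of PRF1. CD247 averaged 49.2 ± 3.95 CPM in tazemetostat mice and 36.6 ± 5.82 CPM in vehicle mice (SD, n = 3 each, log2 fold change 0.43, edgeR adjusted p = 0.465), higher without overlap as STAT4 was, and LCK was lower without overlap (log2 fold change -0.39, edgeR adjusted p = 0.612). Of the 15 NK, myeloid and stromal markers, 2 (FCGR3A and COL3A1) had 0 counts, and the list summed to 15.1 to 15.8 CPM in tazemetostat mice and 15.6 to 17.95 CPM in vehicle mice. The part of other cells in the STAT4 values was not tested. In such bulk samples, fewer cells of a type and less RNA per cell cannot be told apart. STAT4 lies on chromosome 2 at 191029576 to 191151596 (ENSG00000138378, minus strand) and shares 109 exonic bases with AC067945.3 on the other strand, which had 22 counts in all libraries against 647 for STAT4.

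The STAT5 pair serve interleukin-2, interleukin-7 and growth hormone family signals and are nearly identical proteins. STAT5A had 111, 119 and 117 CPM in tazemetostat mice M_767, M_768 and M_774, and 89.2, 98.6 and 125 CPM in vehicle mice M_766, M_769 and M_770. The vehicle mice spanned the tazemetostat mice, so the groups overlapped (115.4 ± 4.20 CPM in tazemetostat mice and 104.4 ± 18.8 CPM in vehicle mice, SD, n = 3 each, log2 fold change 0.14, 95% interval -0.12 to 0.41, edgeR adjusted p = 0.899). The libraries of a mouse were tight for STAT5A, with an SD of 0.0298 on the log2 scale against 0.182 between mice of a group.

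STAT5B was on the other side. It had 106, 98.5 and 107 CPM in tazemetostat mice M_767, M_768 and M_774, and 111, 119 and 110 CPM in vehicle mice M_766, M_769 and M_770, so that every tazemetostat mouse was lower than every vehicle mouse, by a margin of a few CPM. The means were 103.7 ± 4.52 CPM in tazemetostat mice and 113.5 ± 5.10 CPM in vehicle mice (SD, n = 3 each), a log2 fold change of -0.13 (SE 0.0849, 95% interval -0.32 to 0.06, edgeR adjusted p = 0.853). By library, 8 of 9 tazemetostat libraries were below every vehicle library. The ratio of STAT5A to STAT5B in TPM was 1.17, 1.35 and 1.23 in the tazemetostat mice M_767, M_768 and M_774, and 0.898, 0.926 and 1.28 in vehicle mice M_766, M_769 and M_770. STAT5A was thus above STAT5B in 3 of 3 tazemetostat mice and in 1 of 3 vehicle mice, and M_770 lay among the tazemetostat mice. Without library M_768_C the ratio of M_768 was 1.32. The pair share 421 exact windows of 75 bases, which are 7.06% of the 5964 windows of STAT5A and 6.46% of the 6516 of STAT5B. How reads that fit both were counted is not stated. No other pair of the 9 shares any window of that length.

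STAT5B (chromosome 17, 42199168 to 42276707, minus strand, ENSG00000173757), STAT5A (42287547 to 42311943, plus strand, ENSG00000126561) and STAT3 lie side by side. The gap is 10839 bases between STAT5B and STAT5A and 1380 bases between STAT5A and STAT3. The 3 neighbours gave log2 fold changes of -0.13, 0.14 and 0.56 in that order.

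STAT6, the interleukin-4 factor of B cells, had the highest level of the STATs. It had 539, 542 and 561 CPM in tazemetostat mice M_767, M_768 and M_774, and 447, 492 and 583 CPM in vehicle mice M_766, M_769 and M_770. The tazemetostat mice lay close together inside the vehicle range (547.3 ± 11.6 CPM in tazemetostat mice and 507.6 ± 69.4 CPM in vehicle mice, SD, n = 3 each, log2 fold change 0.11, 95% interval -0.14 to 0.35, edgeR adjusted p = 0.920). Vehicle mouse M_770 was the highest of all 6 for STAT6 and STAT5A. The gene lies on chromosome 12 at 57095408 to 57132139 (ENSG00000166888, minus strand), 735252 bases from STAT2, and its exons share 69 bases with NAB2 and 59 with LRP1 on the other strand. NAB2 had 6470 counts and LRP1 1592 in all libraries, against 196917 for STAT6.

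JAK1 serves most of the cytokine receptors named here. Its level was 158, 138 and 153 CPM in tazemetostat mice M_767, M_768 and M_774, and 145, 169 and 156 CPM in vehicle mice M_766, M_769 and M_770. The groups overlapped, with means of 149.8 ± 10.3 CPM in tazemetostat mice and 156.9 ± 11.7 CPM in vehicle mice (SD, n = 3 each, log2 fold change -0.07, 95% interval -0.28 to 0.14, edgeR adjusted p = 0.950). Library M_768_C had 104.8 CPM, and without it M_768 had 152.9 CPM and the log2 fold change was -0.02. The gene lies on chromosome 1 at 64833229 to 64966504 (ENSG00000162434, minus strand) and shares 4 bases with RAVER2 on the other strand.

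JAK2, the kinase of the interferon gamma, interleukin-12 and growth hormone receptors, had 35.5, 30.4 and 33.4 CPM in tazemetostat mice M_767, M_768 and M_774, and 22.4, 31.0 and 26.0 CPM in vehicle mice M_766, M_769 and M_770. Only M_768 and M_769 crossed. The means were 33.1 ± 2.60 CPM in tazemetostat mice and 26.4 ± 4.32 CPM in vehicle mice (SD, n = 3 each), a log2 fold change of 0.32 (SE 0.125, 95% interval 0.05 to 0.60, edgeR adjusted p = 0.671). By library, 8 of 9 tazemetostat libraries were above every vehicle library, and the exception was M_768_C at 23.64 CPM. Without that library M_768 had 33.38 CPM, the groups no longer overlapped for JAK2, and its log2 fold change was 0.37 (edgeR adjusted p = 0.430). The members higher without overlap were then 4 of 9, where 7.99% of all tested genes were, and the members lower without overlap were 1 of 9, where 7.01% were. The gene lies on chromosome 9 at 4984390 to 5128183 (ENSG00000096968, plus strand), with no exonic base shared with another gene.

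TYK2, the partner kinase of JAK1 at the type I interferon receptor and of JAK2 at the interleukin-12 receptor, had 212, 193 and 219 CPM in tazemetostat mice M_767, M_768 and M_774, and 218, 224 and 225 CPM in vehicle mice M_766, M_769 and M_770. M_774 and M_766 crossed, so the groups overlapped. The means were 207.8 ± 13.7 CPM in tazemetostat mice and 222.3 ± 3.84 CPM in vehicle mice (SD, n = 3 each, log2 fold change -0.10, 95% interval -0.29 to 0.10, edgeR adjusted p = 0.908). TYK2 lies on chromosome 19 at 10350529 to 10380676 (ENSG00000105397, minus strand).

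Set per length, the order of the genes differed between the groups in the middle of the scale. In tazemetostat mice the mean TPM was 241 ± 8.11 for STAT6, 111 ± 10.5 for STAT2, 98.7 ± 8.69 for TYK2, 76.4 ± 7.67 for JAK1, 64.4 ± 0.221 for STAT5A, 51.8 ± 3.72 for STAT5B, 33.0 ± 5.19 for STAT3, 17.3 ± 1.94 for JAK2 and 1.41 ± 0.265 for STAT4 (SD, n = 3). In vehicle mice it was 223 ± 38.3 for STAT6, 105 ± 7.45 for TYK2, 79.5 ± 10.04 for JAK1, 74.4 ± 12.8 for STAT2, 58.1 ± 12.3 for STAT5A, 56.3 ± 5.003 for STAT5B, 22.3 ± 4.79 for STAT3, 13.8 ± 2.93 for JAK2 and 0.882 ± 0.171 for STAT4 (SD, n = 3). STAT2 was above TYK2 and above JAK1 in 3 of 3 tazemetostat mice, and below both in 3 of 3 vehicle mice. Among neighbours in the order, STAT2 and TYK2 overlapped over the tazemetostat mice, and JAK1 and STAT2, STAT2 and STAT5A, and STAT5A and STAT5B overlapped over the vehicle mice. No other neighbours did. Without library M_768_C, STAT2 (111.8 to 117.6 TPM) and TYK2 (99.49 to 104.3 TPM) no longer overlapped over the tazemetostat mice, and the mean of STAT5A there was 66.2 ± 3.001 TPM. STAT6 and STAT4 were at the 2 ends in all 6 mice.

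**Figure D3:**
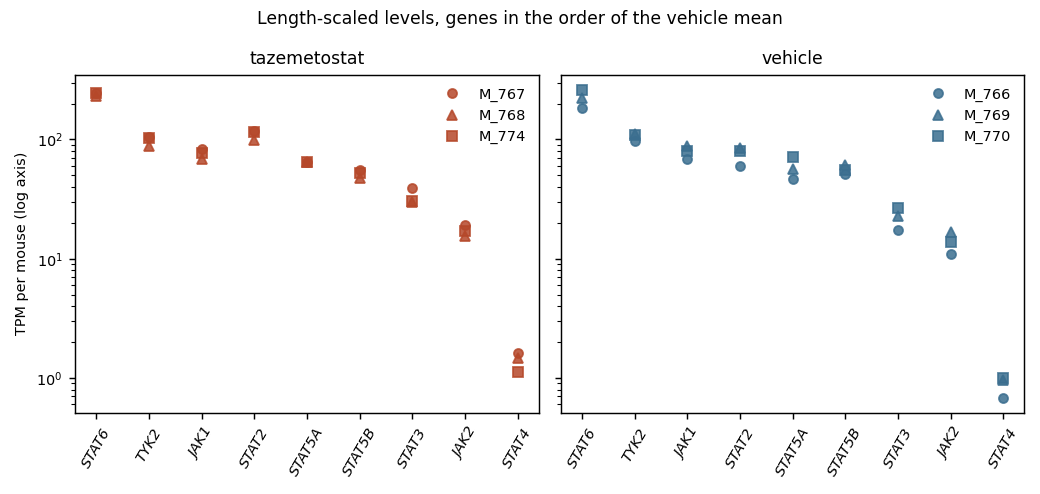
TPM of the 9 genes in each mouse on a log axis, tazemetostat mice on the left and vehicle mice on the right, with the genes in the order of the vehicle mean. STAT2 lies above TYK2 and JAK1 in the 3 tazemetostat mice and below both in the 3 vehicle mice.

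As a share of the summed TPM of the 6 STAT genes, which leaves library scaling out, STAT2 made up 22.0 ± 1.04% in tazemetostat mice and 17.1 ± 1.35% in vehicle mice (SD, n = 3 each). STAT3 made up 6.54 ± 0.788% in tazemetostat mice and 5.10 ± 0.316% in vehicle mice. STAT6 made up 48.0 ± 0.917% in tazemetostat mice and 51.2 ± 1.46% in vehicle mice, and STAT5B 10.3 ± 0.215% in tazemetostat mice and 13.1 ± 1.64% in vehicle mice. None of these 4 shares overlapped between the groups. Nor did that of STAT4, at 0.219 to 0.313% in tazemetostat mice and 0.191 to 0.214% in vehicle mice. The STAT5A share overlapped, at 12.26 to 13.58% in tazemetostat mice and 12.65 to 14.36% in vehicle mice. How often such shares separate for other genes was not computed, and shares of a single total cannot all move the same way. The ratio of JAK2 to JAK1 in TPM was 0.230, 0.225 and 0.223 in the tazemetostat mice M_767, M_768 and M_774, and 0.158, 0.188 and 0.170 in vehicle mice M_766, M_769 and M_770, without overlap. Library M_768_C was low for both kinases, and without it the ratio of M_768 was 0.224. Without it the shares in tazemetostat mice were 22.1 ± 0.898% for STAT2, 6.56 ± 0.779% for STAT3, 48.1 ± 1.01% for STAT6 and 10.3 ± 0.256% for STAT5B, and none of the 4 overlapped with the vehicle mice.

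Over the 18 libraries, STAT2 and STAT3 had a Pearson r of 0.90 on log2 CPM, and 0.64 once each group's mean was taken off. STAT5A and STAT6 had 0.90, and 0.88 around the group means, while STAT5A and STAT5B had -0.47, and -0.24 around the group means. STAT2 and JAK2 had 0.87, and 0.88 around the group means. Over the 17 libraries without M_768_C, r was 0.90 for STAT2 and STAT3, 0.97 for STAT5A and STAT6, -0.52 for STAT5A and STAT5B, and 0.90 for STAT2 and JAK2. These values describe libraries that come 3 from a mouse, and they carry no p.

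Among genes whose mean log2 CPM was 1 or more, the 3 most like STAT2 over the 18 libraries were PARP14 (r = 0.97), SLC25A30 (r = 0.96) and PARP15 (r = 0.95). The 3 most like STAT3 were APOL6, TAP1 and WARS, each with r = 0.97. STAT4 was most like HSPA1A, a heat shock protein gene (r = 0.83), AK4P3 (r = 0.81) and CBLN3 (r = 0.79). For STAT5A they were IRF8, SLC37A1 and POLR3G (r = 0.96, 0.94 and 0.93), for STAT5B PLCG1, MAPKBP1 and WASF2 (r = 0.93, 0.92 and 0.89), and for STAT6 SCO1, YWHAG and ACSL4 (r = 0.96, 0.95 and 0.94). For JAK1 they were TBL1X, EPB41L4A and RAG1 (r = 0.95, 0.94 and 0.93), for JAK2 TAB2, ATAD2 and ZMAT3 (r = 0.95, 0.93 and 0.93), and for TYK2 UHRF1, GAK and GUCD1 (r = 0.93, 0.92 and 0.91). Spearman's rho for these genes was lower in JAK1 (0.72, 0.61 and 0.81) and TYK2 (0.76, 0.77 and 0.68), and ran over 0.87 to 0.89 for STAT2, 0.95 to 0.97 for STAT3, 0.61 to 0.87 for STAT4, 0.87 to 0.91 for STAT5A, 0.80 to 0.90 for STAT5B, 0.74 to 0.95 for STAT6 and 0.86 to 0.97 for JAK2. Without library M_768_C, Pearson's r of the same genes was 0.83, 0.81 and 0.85 for JAK1, 0.78, 0.80 and 0.70 for TYK2, and 0.87, 0.86 and 0.79 for STAT5B, each lower than with it. For the other 6 members r without it ran over 0.80 to 0.99. Around the group means of all 18 libraries, r was 0.66, 0.67 and 0.60 for STAT4 with HSPA1A, AK4P3 and CBLN3. For the other members with their most like genes it ran over 0.80 to 0.96. The libraries share mice and differ in depth.

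Of 38 cytokine receptor chains, which recruit the JAKs, 31 were tested and 0 passed, with 12 fold changes above 0, 19 below it and a median log2 fold change of -0.08. IL4R, the interleukin-4 receptor chain upstream of STAT6, had 63.7, 60.2 and 60.7 CPM in tazemetostat mice M_767, M_768 and M_774, and 79.5, 79.0 and 93.1 CPM in vehicle mice M_766, M_769 and M_770 (log2 fold change -0.45, edgeR adjusted p = 0.264). Every tazemetostat mouse was below every vehicle mouse for IL4R. IL2RA, a chain of the interleukin-2 receptor, averaged 2.55 ± 0.713 CPM in tazemetostat mice and 4.42 ± 0.521 CPM in vehicle mice (SD, n = 3 each, log2 fold change -0.80, edgeR adjusted p = 0.454), and IL15RA averaged 18.2 ± 0.735 CPM in tazemetostat mice and 13.7 ± 2.27 CPM in vehicle mice (SD, n = 3 each, log2 fold change 0.41, edgeR adjusted p = 0.531).

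Of 22 cytokine ligands, 10 were tested and 0 passed, with 6 above 0, 4 below and a median log2 fold change of 0.25. LIF, a ligand of the interleukin-6 family, averaged 1.49 ± 0.281 CPM in tazemetostat mice and 0.792 ± 0.0946 CPM in vehicle mice (SD, n = 3 each, log2 fold change 0.91, edgeR adjusted p = 0.413). IL15 averaged 6.03 ± 0.202 CPM in tazemetostat mice and 4.36 ± 0.199 CPM in vehicle mice (SD, n = 3 each, log2 fold change 0.47, edgeR adjusted p = 0.476), and IL12A, a subunit of interleukin-12, had a log2 fold change of 0.41 (edgeR adjusted p = 0.643). The groups did not overlap for any of these 3. Transcripts of the interferon genes IFNG, IFNB1 and IFNL1 were near the floor in the sorted cells, and other interferon genes are not described here. IFNG had 1, 4 and 1 counts in tazemetostat mice M_767, M_768 and M_774 and 0 counts in each vehicle mouse, and IFNB1 had 1, 7 and 5 counts in tazemetostat mice and 1, 1 and 2 counts in vehicle mice M_766, M_769 and M_770. IL2 and IL21 had 0 counts in all 6 mice.

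Of 19 inhibitors of the pathway, 18 were tested and 0 passed, with 14 above 0, 4 below and a median log2 fold change of 0.11. SOCS1, which binds and blocks JAK kinases, had 58.2, 70.5 and 56.4 CPM in tazemetostat mice M_767, M_768 and M_774, and 41.1, 38.1 and 44.3 CPM in vehicle mice M_766, M_769 and M_770 (log2 fold change 0.58, edgeR adjusted p = 0.219). The groups did not overlap. USP18, which blocks the type I interferon receptor together with STAT2, averaged 4.78 ± 1.30 CPM in tazemetostat mice and 2.40 ± 0.489 CPM in vehicle mice (SD, n = 3 each, log2 fold change 0.99, edgeR adjusted p = 0.354). PTPN6, the phosphatase SHP-1, averaged 51.7 ± 6.03 CPM in tazemetostat mice and 39.7 ± 11.3 CPM in vehicle mice, with overlap (SD, n = 3 each, log2 fold change 0.38, edgeR adjusted p = 0.764).

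Of the 29 genes in the list of the STAT2 partner IRF9 and interferon targets, all 29 were tested. There 28 had fold changes above 0, the median log2 fold change was 0.62, and 1 gene passed. That gene, IFI27, averaged 36.9 ± 6.83 CPM in tazemetostat mice and 17.0 ± 1.61 CPM in vehicle mice (SD, n = 3 each, log2 fold change 1.12, edgeR adjusted p = 0.029). The call was lost without library M_768_C (log2 fold change 1.05, edgeR adjusted p = 0.0502), with limma-voom on the mouse sums (adjusted p = 0.0558), and without mouse M_768, M_774 or M_769 (edgeR adjusted p = 0.205, 0.192 and 0.282). IFI44L (log2 fold change 1.48) and EPSTI1 (log2 fold change 0.75), both interferon-induced, each had an edgeR adjusted p of 0.183. Of the list, 26 had an unadjusted p under 0.05 on the higher side and 18 did not overlap, against the 3.34% and 6.58% of all tested genes given above. The list was drawn up with the interferon pattern of these samples known, so its direction is not independent evidence.

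**Figure D4:**
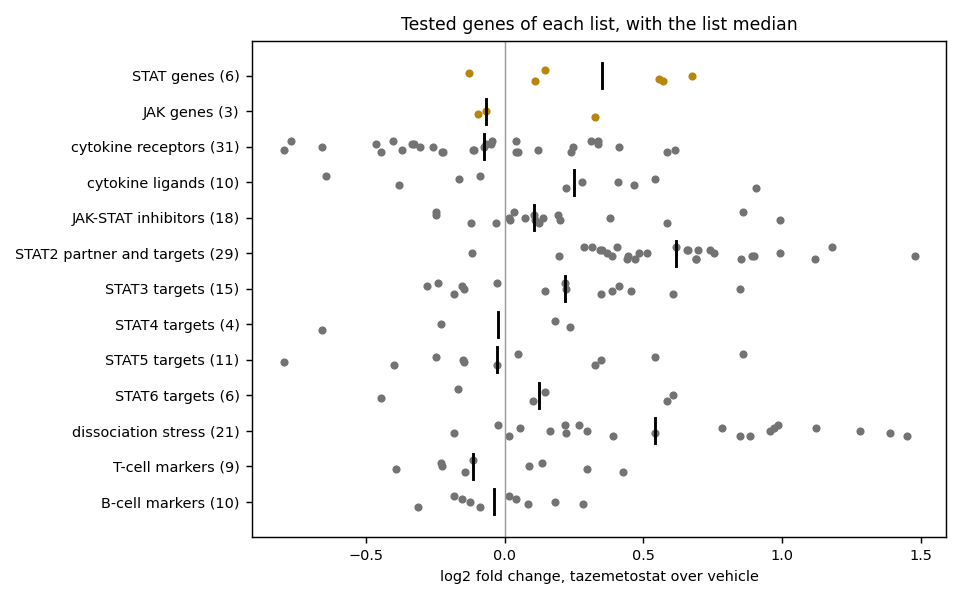
Log2 fold change of tazemetostat over vehicle for each tested gene (points) of the STAT and JAK genes and of 11 lists, with the number tested in brackets and the median as a black bar. The STAT2 partner and target list has a median of 0.62 and the dissociation stress list 0.54, while the receptor, STAT4, STAT5, T-cell and B-cell lists have medians below 0.

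The targets of the other STATs were mixed. Of 17 STAT3 targets, 15 were tested and 0 passed (9 above 0, 6 below, median log2 fold change 0.22), with BATF at 0.61, VEGFA at 0.39 and FOS at 0.85 on the log2 scale and edgeR adjusted p of 0.581, 0.635 and 0.655. Of 9 STAT4 targets, 4 were tested and 0 passed (median -0.02). Of 11 STAT5 targets, all were tested and 0 passed (5 above 0, 6 below, median -0.03). Among them CCND3, cyclin D3, averaged 266 ± 13.4 CPM in tazemetostat mice and 351 ± 19.6 CPM in vehicle mice (SD, n = 3 each, log2 fold change -0.40, edgeR adjusted p = 0.323), and the kinase gene PIM2 averaged 221 ± 19.5 CPM in tazemetostat mice and 174 ± 24.8 CPM in vehicle mice (SD, n = 3 each, log2 fold change 0.35, edgeR adjusted p = 0.589), so these 2 STAT5 targets lay on opposite sides, each without overlap. IL2RA, a receptor chain described above, is a STAT5 target on the same list. It was lower without overlap, as CCND3 was (log2 fold change -0.80, edgeR adjusted p = 0.454). Of 12 STAT6 targets, 6 were tested and 0 passed (4 above 0, 2 below, median 0.12), and SOCS1 and IL4R, described above, are both on that list with opposite signs.

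A list of 22 genes that tissue dissociation is known to induce was higher in the tazemetostat mice, as STAT2 and STAT3 were. Its mean log2(CPM + 0.5) was 6.31, 6.33 and 5.95 in the tazemetostat mice M_767, M_768 and M_774, and 5.17, 5.81 and 5.78 in vehicle mice M_766, M_769 and M_770 (exact permutation p = 0.1, two-sided, the smallest that 3 mice against 3 allow). Of its 21 tested genes, 19 had fold changes above 0, 11 had an unadjusted p under 0.05 on the higher side, where 3.34% of all tested genes did, and 0 passed. FOS and JUNB are on this list and on that of the STAT3 targets. HSPA1A, the gene most like STAT4 (r = 0.83, and 0.66 around the group means), is on this list too. The part of this list in the values of STAT2, STAT3 and STAT4 was not tested. The share of mitochondrial counts was 4.95 to 5.45% in tazemetostat mice and 4.92 to 5.18% in vehicle mice (exact permutation p = 0.4, two-sided).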

How the data were processed

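The deposited table gives unnormalized whole-number counts of 58735 genes by Ensembl ID, 1 column for each of 18 libraries, and beside them the authors' gene length, a score in bases, per the file headers. Libraries were made with the NEB NEXT Ultra II kit, per the labels' protocols. The submitters' processing notes name hg38 and DESeq2, and no aligner, counter or strand setting was found in the labels. All 58735 IDs matched GENCODE release 29, whose coordinates are printed.

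Counts of the 3 libraries of a mouse were summed, since the mouse was treated; all 18 pairs of libraries from 1 mouse differed by more than sampling noise, so none was taken as a repeat. Mouse sums held 59132193 to 69816184 counts in tazemetostat mice and 55712115 to 66053406 in vehicle mice. The main test was edgeR's quasi-likelihood F test (edgeR 4.0.16, R 4.3.3) with TMM scaling. The filterByExpr minimum of 10 counts left 20301 genes, over which p-values were adjusted by Benjamini-Hochberg at a threshold of 0.05. SE is approximate, from the fold change and its F value. TPM was computed from counts and deposited lengths. Nothing says whether the mice came from separate experiments, so p-values measure the spread between these mice. Alternatives were other scaling and filters, DESeq2 1.42.0, limma-voom (limma 3.58.1), a fit of single libraries with a random effect for the mouse, and leaving out library M_768_C or 1 mouse. Correlations, TPM ratios and shares without that library were added after seeing the data. The fit was also run on simulated counts with known fold changes, and how many of them it recovered is not reported here.

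The members and lists were chosen with earlier results of these data known. Genes named are the members, up to 3 genes of smallest p in each list, the 3 genes most like each member, and genes whose models overlap a member's; other genes named as list members or low counts were chosen after their values were seen. Among the marker lists, the smallest p belonged to CD247, LCK and IL7R (T cell), BLK, MS4A1 and EBF1 (B cell), NCAM1, KLRD1 and CD14 (NK, myeloid and stromal) and ATF3, ZFP36 and DUSP1 (dissociation stress), and none of these 12 passed.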

Additional observations from a re-analysis of the deposited data

Results flagged for a closer look

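In 6 of 18 sets of 9 libraries (1 gene in 1 group), 1 library lay far below the others of its group, and each time it was library M_768_C of the tazemetostat group. It had 164.5 CPM for STAT2, 89.19 CPM for STAT5B, 473.7 CPM for STAT6, 104.8 CPM for JAK1, 23.64 CPM for JAK2 and 168.1 CPM for TYK2. The gap to the next library was 0.578 of the group's range for STAT2, 0.63 for STAT5B, 0.553 for STAT6, 0.768 for JAK1, 0.647 for JAK2 and 0.536 for TYK2, where Dixon's critical value is 0.493. Chance flags about 1 in 20 such sets, but libraries of a mouse are not independent and the same library is in all 6. Without M_768_C, the log2 fold change was 0.60 for STAT2, -0.11 for STAT5B, 0.14 for STAT6, -0.02 for JAK1, 0.37 for JAK2 and -0.07 for TYK2. Its chi-square per degree of freedom against the other libraries of its mouse was at least 49.4, where other pairs of libraries of a mouse had at most 4.81.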

How the results depend on the processing

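The number of genes past the threshold was 7, and it was 252 in edgeR with no low-count filter, 119 with DESeq2, 225 in the fit of 18 libraries with a random effect for the mouse, and 190 in that fit with the library letter as a replicate block. Leaving out 1 mouse gave 0 to 59 genes: 1, 0 and 0 without tazemetostat mice M_767, M_768 and M_774, and 26, 0 and 59 without vehicle mice M_766, M_769 and M_770. The members past the threshold were 0, and 2 (STAT2 and STAT3) in those same 4 fits; leaving out any 1 mouse gave 0 members. With upper-quartile factors, 2 members rather than 1 were lower without overlap, TYK2 joining STAT5B. The cause of these differences was not tested. Over 16 alternatives no member's fold change reversed. The letters were not taken to pair the libraries, since deviations of same-letter libraries had a mean correlation of -0.0129 across genes. IFI27 did not pass in 5 of 16 alternatives: without library M_768_C, with limma-voom on the mouse sums, and without mouse M_768, M_774 or M_769. With 3 mice a group, the smallest exact permutation p is 0.1.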
